A study of Mus musculus with 6 samples.

Results

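Plasma cell genes are described here, 10 genes that mark antibody-secreting cells: Jchain, Igkc, Tnfrsf17, Tnfrsf13b, Sdc1, Prdm1, Irf4, Mzb1, Eaf2 and Pou2af1. They were taken by name from a table of 28945 genes, and each matched 1 row. The table gives RNA levels of purified splenic CD4+ T cells of the mouse, in 3 libraries labelled CONT (C57BL/6J) and 3 labelled DM (db/db). Mice of the db/db line have a defective leptin receptor, with obesity and diabetes as a result. The labels give no strain background for the db/db mice, no age, sex or diet, and no statement that libraries came from different animals, so a p-value here reflects the spread of these libraries, which may be technical. Eldecalcitol, a vitamin D analogue, is named in the series title along with regulatory T cells and store-operated calcium entry; none of the 6 libraries is labelled as treated, and the comparison made was DM against CONT.

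Plasma cells are the end stage of B cell differentiation and secrete antibody. The transcription factor IRF4 starts this programme, and BLIMP1, the product of Prdm1, shuts down B cell genes such as Pax5 and drives secretion, while the endoplasmic reticulum expands to fold immunoglobulin. Plasma cells depend for survival on APRIL and BAFF, cytokines that bind the receptors BCMA (Tnfrsf17) and TACI (Tnfrsf13b). Several of these genes are not restricted to plasma cells: activated, regulatory and follicular helper T cells also use Irf4, Prdm1 and, in part, Pou2af1, and B cells express Igkc, Tnfrsf13b, Mzb1, Eaf2 and Pou2af1. In bulk RNA, more cells of a type and more RNA per cell cannot be told apart.

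Start-site sequence is shown for Tnfrsf17, the gene that passed the test, for Jchain, whose groups were apart without passing, and for Pou2af1, whose groups overlapped. Each window runs from 250 bases before to 50 bases after the RefSeq gene start on GRCm38.p6, and capitals mark a match to 1 of 3 motifs. Tnfrsf17 is at chr16:11313559-11313858 (plus strand), Jchain at chr5:88527848-88528147 (minus strand) and Pou2af1 at chr9:51213440-51213739 (plus strand).
Tnfrsf17: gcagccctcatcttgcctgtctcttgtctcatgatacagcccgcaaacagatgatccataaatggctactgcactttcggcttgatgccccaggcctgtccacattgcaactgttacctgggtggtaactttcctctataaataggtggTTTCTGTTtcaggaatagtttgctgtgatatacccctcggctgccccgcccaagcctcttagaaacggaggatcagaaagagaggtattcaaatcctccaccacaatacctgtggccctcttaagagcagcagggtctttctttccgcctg
Jchain: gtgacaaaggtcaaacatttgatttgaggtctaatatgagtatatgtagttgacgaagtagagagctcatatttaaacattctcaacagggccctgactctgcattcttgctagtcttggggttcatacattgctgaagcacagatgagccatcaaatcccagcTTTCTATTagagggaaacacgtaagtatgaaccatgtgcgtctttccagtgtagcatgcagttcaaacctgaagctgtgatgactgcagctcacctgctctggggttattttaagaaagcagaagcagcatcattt
Pou2af1: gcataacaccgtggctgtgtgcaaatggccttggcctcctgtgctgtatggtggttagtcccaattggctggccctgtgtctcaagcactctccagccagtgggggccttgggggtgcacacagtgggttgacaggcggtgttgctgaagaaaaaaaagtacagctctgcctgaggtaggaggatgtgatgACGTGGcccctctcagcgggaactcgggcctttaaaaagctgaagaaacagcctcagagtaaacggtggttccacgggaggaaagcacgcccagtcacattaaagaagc
The motifs were the octamer ATGCAAAT, bound by POU2F factors with their coactivator POU2AF1, the IRF element AANNGAAA, and CCACGT, a core of XBP1 sites, each searched on both strands. RefSeq windows were matched for 8 of the 10 genes, 10 windows in all. The IRF element was found in Tnfrsf17 (bases 150 to 157 of the window, opposite strand) and in Jchain (bases 165 to 172, opposite strand), that is in 2 of the 10 windows, and 23.9% of 32851 windows of the same length hold it. The XBP1 core was found in Pou2af1 (bases 192 to 197, opposite strand), as in 8.31% of all windows. The octamer, in 1.74% of all windows, was in none of the 10. A match is a run of letters and was not tested as a binding site.

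Levels are FPKM, which scales fragments by transcript length and library size, so different genes can be set side by side. The depth of each library is unknown. CONT replicate 1 stood apart, with a mean correlation of 0.878 to its own group on log2(FPKM + 1) where the other libraries had 0.915 to 0.949. DM replicate 3 stood apart in B cell RNA: 18 B cell identity genes summed to 475 FPKM there, against 18.3 to 61.1 in CONT and 25.6 and 25.2 in the other DM libraries. The CD4 T cell marker genes Cd4 (means of 177 and 103 FPKM for CONT and DM) and Cd3e (94.8 and 44.6 FPKM) were expressed in both groups.

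The genes for antibody and its assembly (Igkc, Jchain and Mzb1), the receptor genes Tnfrsf17 and Tnfrsf13b, the surface marker Sdc1 and the elongation factor Eaf2 were higher in all 3 DM libraries than in any CONT library. The transcription regulators Prdm1, Irf4 and Pou2af1 overlapped between the groups. Tnfrsf17 alone passed the test, which ran in limma over 13106 genes averaging 1 FPKM or more in either group, with a call at an adjusted p (Benjamini-Hochberg) under 0.05. Of the 10 genes 1 was thus called, higher in DM, where 1.27% of all genes tested were called higher, 0.252% lower and 1.52% either way. Unadjusted p-values were under 0.05 for 6 of the 10, all higher, against 9.77% of all genes higher, 6.24% lower and 16.0% either way. In 7 of 10 the DM libraries lay entirely above the CONT libraries, as they did in 13.8% of all genes. Tnfrsf17, Sdc1 and Eaf2 reached the level tested only through DM, so these 3 had to be higher there, and the counts describe the genes without supporting a difference. Differences between groups, DM minus CONT on the log2(FPKM + 1) scale, had a median of 1.12 over the 10 and -0.01 over all genes tested.

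**Figure D1:**
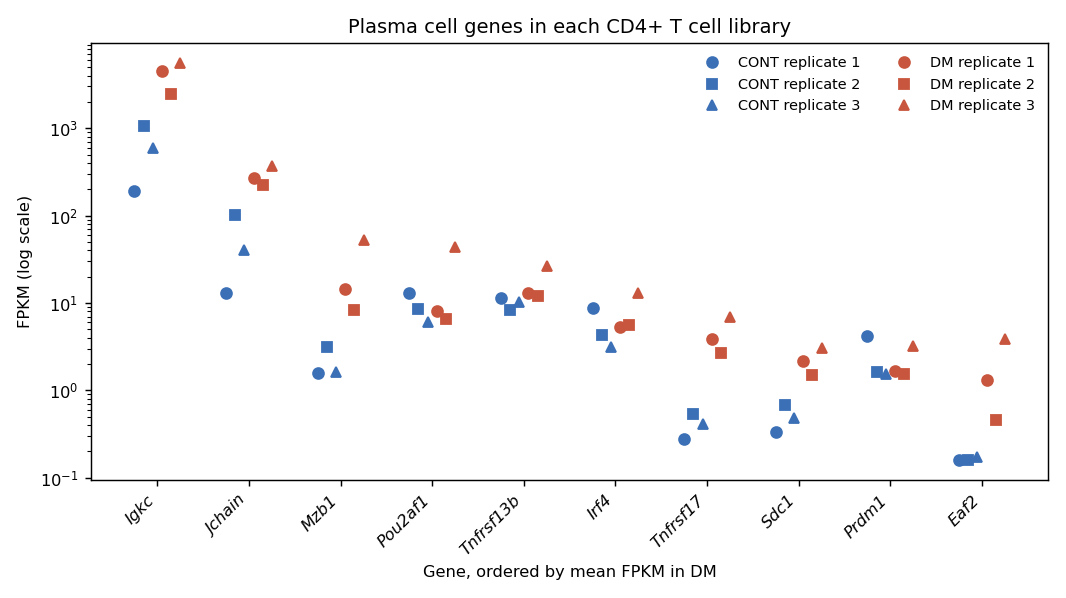
FPKM on a log axis of each plasma cell gene in each of the 6 libraries; 1 symbol is 1 library, CONT in blue and DM in red. Igkc runs from 193 FPKM in CONT replicate 1 to 5538 FPKM in DM replicate 3, and the groups overlap for Pou2af1, Irf4 and Prdm1.

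Igkc, the constant region of the kappa light chain (chromosome 6, 70726435 to 70726966 on GRCm38, plus strand), was the most abundant of the 10 genes in every library. CONT replicates 1, 2 and 3 gave 193, 1062 and 599.8 FPKM, and DM replicates 1, 2 and 3 gave 4459, 2463 and 5538 FPKM. The lowest DM library was 2.32 times the highest CONT library. Ranked among all genes by level, Igkc was in places 111, 33 and 88 in CONT and in places 12, 20 and 5 in DM. Group means were 618 ± 435 FPKM for CONT and 4153 ± 1560.4 FPKM for DM (SD, n = 3), and the log2 difference of 2.98 ± 0.68 (SE) missed the threshold (limma adjusted p = 0.1).

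Jchain, which links IgM and IgA into polymers and is made by antibody-secreting cells (chromosome 5, 88519809 to 88527891, minus strand), ranked next in mean level. Its FPKM was 12.9, 102 and 40.4 over the CONT replicates in order and 269, 226 and 374 over the DM replicates. CONT replicate 1 was at 0.182 times the mean of CONT replicates 2 and 3, and every DM library was above every CONT library. The log2 difference was 2.87 ± 0.68 (SE; limma adjusted p = 0.107). Without CONT replicate 2, the CONT library richest in Jchain, it was 3.57 and passed (limma adjusted p = 0.0308). Leaving out that library raises the difference by construction. Jchain passed in no other fit, with limma adjusted p from 0.0776 (without CONT replicate 1) to 0.319 (without DM replicate 3).

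Mzb1, an endoplasmic reticulum protein that assists antibody assembly in marginal zone B cells and plasma cells, had 1.58, 3.12 and 1.62 FPKM over the CONT replicates and 14.5, 8.27 and 52.9 FPKM over the DM replicates. All DM libraries were higher, and DM replicate 3 was 4.65 times the mean of DM replicates 1 and 2. Its log2 difference was 2.71 ± 0.60 (SE; limma adjusted p = 0.0944), and without DM replicate 3 it was 1.98 ± 0.34 (limma adjusted p = 0.0927).

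Tnfrsf17 encodes BCMA, the receptor through which APRIL keeps plasma cells alive (chromosome 16, 11313812 to 11320074, plus strand), and it rose in DM. The CONT replicates had 0.279, 0.542 and 0.417 FPKM and the DM replicates 3.82, 2.71 and 6.88 FPKM. The lowest DM library was 5.002 times the highest CONT library, the widest such gap among the 10 genes. Means of 0.413 ± 0.131 and 4.47 ± 2.16 FPKM (SD, n = 3) stood in a ratio of 10.8, and the log2 difference, on a scale that understates the change of low genes, was 1.89 ± 0.30 (SE; limma adjusted p = 0.0340). With genes filtered on the mean of all 6 libraries the call held (limma adjusted p = 0.0340). That filter does not use the groups, but Tnfrsf17 cleared it through its DM values alone. The call was lost in 9 of 18 alternatives, including the fit with no filter on low values (limma adjusted p = 0.118). Among these were 5 of the 6 fits that left out 1 library, with limma adjusted p = 0.0554, 0.0675 and 0.0967 on dropping CONT replicates 1, 2 and 3 in turn, 0.137 on dropping DM replicate 1, and 0.0728 on dropping DM replicate 3. It held without DM replicate 2 (limma adjusted p = 0.0421) and without CONT replicate 1 and DM replicate 3 together (limma adjusted p = 0.0395).

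Tnfrsf13b encodes TACI, the other receptor of BAFF and APRIL among the 10 (chromosome 11, 61126755 to 61149372, plus strand). Its CONT replicates had 11.4, 8.30 and 10.2 FPKM and its DM replicates 13.02, 12.0 and 26.2 FPKM. The groups did not overlap, but the lowest DM library was only 1.05 times the highest CONT library. In every library its level was above that of Tnfrsf17. The log2 difference of 0.65 ± 0.31 (SE; limma adjusted p = 0.332) fell to 0.31 without DM replicate 3.

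Sdc1 encodes CD138, the surface proteoglycan used to sort mouse plasma cells (chromosome 12, 8771323 to 8793715, plus strand). Over the CONT replicates it measured 0.338, 0.674 and 0.487 FPKM, and over the DM replicates 2.18, 1.51 and 3.09 FPKM. Every DM library was above every CONT library, and the lowest was 2.24 times the highest CONT value. The log2 difference was 1.10 ± 0.25 (SE; limma adjusted p = 0.0968).

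**Figure D2:**
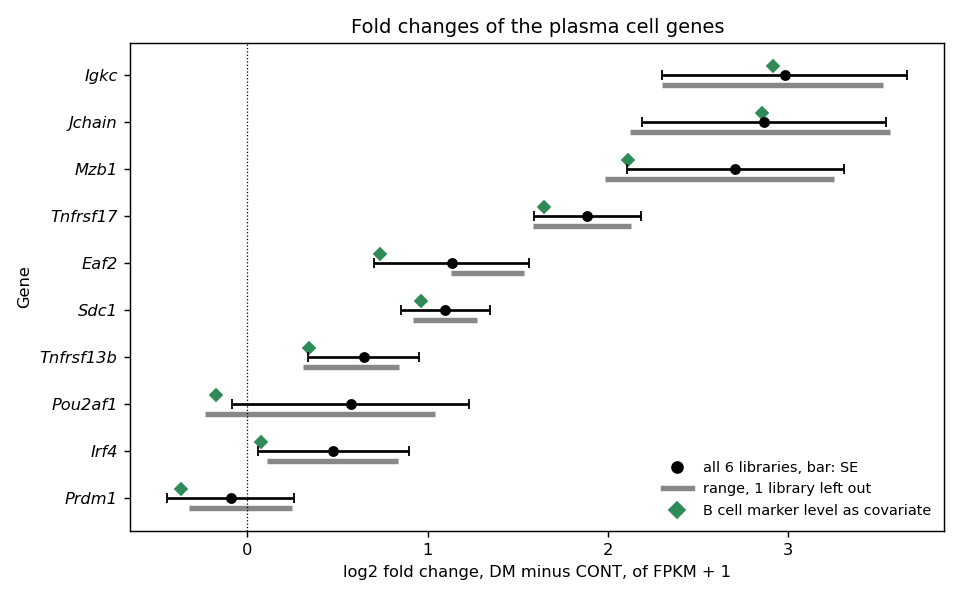
Log2 fold change of FPKM + 1, DM minus CONT, of each gene over all 6 libraries (black, bar: SE), its range when 1 library is left out (grey) and its value with the B cell marker level as a covariate (green). The points of Igkc, Jchain, Mzb1 and Tnfrsf17 (2.98, 2.87, 2.71 and 1.89) are the highest, and Pou2af1 and Prdm1 take either sign; Eaf2 has no value without DM replicate 3, where it was below the level tested.

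Prdm1, Irf4 and Pou2af1, the regulators, had groups that overlapped. Prdm1, whose product BLIMP1 also acts in effector and regulatory T cells (chromosome 10, 44437177 to 44528501, minus strand), had 4.24, 1.63 and 1.53 FPKM over CONT and 1.69, 1.52 and 3.23 FPKM over DM. Its highest value was in CONT replicate 1, and no DM library exceeded it. The log2 difference was -0.09 ± 0.35 (SE; limma adjusted p = 0.881); without CONT replicate 1 it was 0.25 and did not pass either (limma adjusted p = 0.690).

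Irf4, needed for plasma cells and for effector regulatory T cells (chromosome 13, 30749226 to 30766976, plus strand), had 8.85, 4.27 and 3.12 FPKM over CONT and 5.25, 5.65 and 12.9 FPKM over DM. CONT replicate 1 was above DM replicates 1 and 2. The log2 difference was 0.48 ± 0.42 (SE; limma adjusted p = 0.509), and 0.11 without DM replicate 3 or 0.84 without CONT replicate 1, passing in neither.

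Pou2af1 encodes OBF-1, the coactivator that works with octamer-binding factors in B cells (chromosome 9, 51213708 to 51240080, plus strand). Its level was 12.97, 8.46 and 6.06 FPKM over CONT and 8.05, 6.64 and 43.5 FPKM over DM. DM replicates 1 and 2 lay within the CONT range, and DM replicate 3 was 5.92 times their mean. The log2 difference of 0.57 ± 0.66 (SE; limma adjusted p = 0.603) became -0.23 without that library.

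Eaf2, a factor that works with ELL proteins in transcription elongation (chromosome 16, 36792884 to 36875003, minus strand), had the lowest mean of the 10 in either group. CONT libraries held 0.160, 0.161 and 0.172 FPKM and DM libraries 1.32, 0.460 and 3.90 FPKM. The CONT libraries were nearly equal and all DM libraries were higher, with DM replicate 3 at 4.37 times the mean of DM replicates 1 and 2. The log2 difference was 1.13 ± 0.43 (SE; limma adjusted p = 0.285). Some of the 10 genes overlap others in the annotation: Eaf2 with Iqcb1 and the noncoding AC154232.1 on the opposite strand, Mzb1 with Spata24, Igkc with the noncoding Gm30211 and Pou2af1 with the intronic Gm47828 on the same strand, and Tnfrsf13b with a pseudogene on the opposite strand. The sources do not say whether counting used strand, so reads of such pairs may be shared.

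The authors' deposited table marks 6 of the 10 genes as significant: Jchain, Igkc, Tnfrsf17, Sdc1, Mzb1 and Eaf2. The authors' deposited table gives a q-value of 2.15e-08 for Tnfrsf17, 0.00233 for Jchain and 0.286 for Tnfrsf13b. The marked genes are the same 6 that had an unadjusted p under 0.05 in limma here; the authors' test is not stated, and for Tnfrsf17 and Jchain its q-values were smaller than the adjusted p-values found here.

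Ordered by mean level, CONT had Igkc and Jchain followed by Tnfrsf13b, Pou2af1, Irf4, Prdm1, Mzb1, Sdc1, Tnfrsf17 and Eaf2. In DM, Mzb1 (25.2 ± 24.2 FPKM; SD, n = 3) followed Jchain, ahead of Pou2af1 (19.4 ± 20.9 FPKM), Tnfrsf13b (17.1 ± 7.90 FPKM), Irf4, Tnfrsf17, Sdc1, Prdm1 and Eaf2. Some neighbours did not differ beyond their spread, such as Tnfrsf13b and Pou2af1 in CONT and Mzb1, Pou2af1 and Tnfrsf13b in DM.

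Set against Jchain within each library, Igkc kept a nearly fixed proportion. The ratio of Igkc to Jchain came to 14.9, 10.4 and 14.9 over the CONT replicates in order, and to 16.5, 10.9 and 14.8 over the DM replicates. It spanned 1.59-fold over the 6 libraries, while Jchain itself ran from 12.9 to 374 FPKM. Tnfrsf17 per Jchain measured 0.0216, 0.00532 and 0.0103 over CONT libraries and 0.0142, 0.0120 and 0.0184 over DM libraries, with overlapping groups. Sdc1 per Jchain also overlapped, at 0.0149 on average in CONT and 0.00768 in DM.

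Prdm1, Irf4 and Tnfrsf13b were lower per Jchain in every DM library than in any CONT library. Jchain in the lowest DM library was 2.22 times that in the highest CONT library. A gene that changed little would thus tend to have a lower ratio in DM. Prdm1 per Jchain stood at 0.327, 0.0160 and 0.0379 over the CONT libraries and 0.00626, 0.00674 and 0.00864 over the DM libraries. For Irf4 the ratios were 0.684, 0.0419 and 0.0774 over CONT libraries and 0.0195, 0.0250 and 0.0345 over DM libraries. Tnfrsf13b per Jchain fell into 0.0815 to 0.882 for CONT and 0.0483 to 0.0700 for DM. The ratios were formed after the values were seen. An exact two-sided permutation test of each of 10 ratios gave p = 0.1 for these 3, the smallest that 3 against 3 libraries allow, and 0.333 adjusted over the 10, so none passed. All 3 ratios were highest in CONT replicate 1, the library with the least Jchain.

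**Figure D3:**
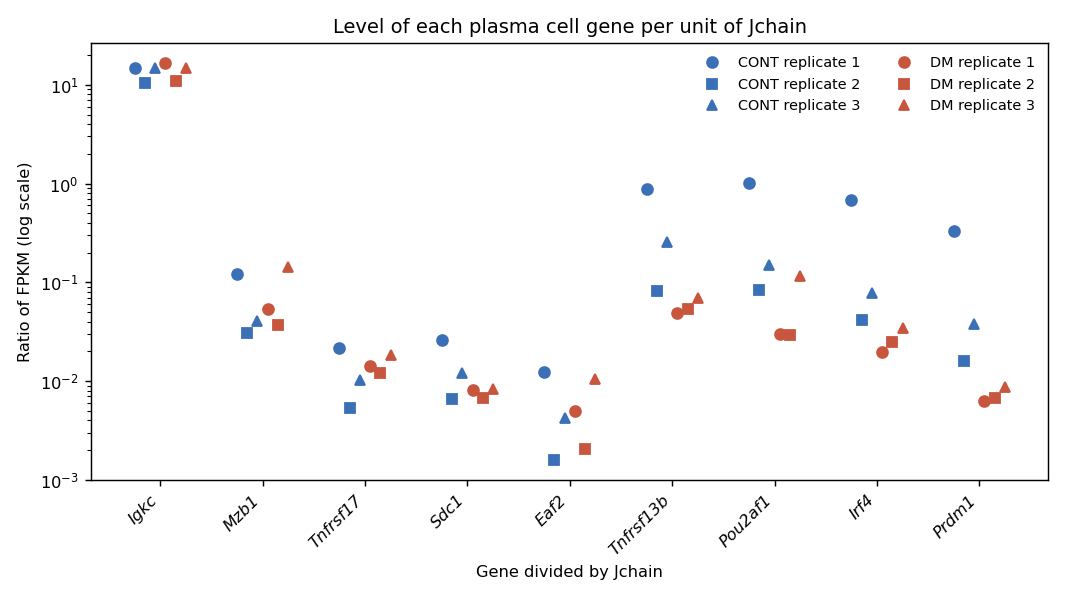
FPKM of each gene divided by that of Jchain in the same library, on a log axis, with CONT in blue and DM in red. Igkc stays between 10.4 and 16.5, while Prdm1 spans 0.00626 to 0.327.

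DM replicate 3 was the highest library for 9 of the 10 genes, and it was also the library with the B cell markers. It had the highest sums of macrophage and monocyte (1247 FPKM), neutrophil (1394 FPKM), dendritic cell (168 FPKM) and erythroid genes (5415 FPKM) too. Basophil and mast cell genes had their highest sum in DM replicate 1 (374 FPKM). Ms4a1 (CD20), a surface marker of B cells, had 1.46, 0.421 and 0.0759 FPKM over the CONT replicates and 0.579, 0.480 and 29.8 FPKM over the DM replicates. Pax5, which BLIMP1 represses in plasma cells, had 0.188, 0.149 and 11.6 FPKM over DM. DM replicate 3 stood at 5.92 times the mean of DM replicates 1 and 2 for Pou2af1, 4.65 times for Mzb1 and 4.37 times for Eaf2. It stood at 2.36 times for Irf4, 2.11 times for Tnfrsf17, 2.09 times for Tnfrsf13b and 2.01 times for Prdm1. The lowest of these ratios were 1.67 for Sdc1, 1.60 for Igkc and 1.51 for Jchain. Of 17 B cell identity genes tested in limma 0 were called and 0 had an unadjusted p under 0.05; 1 had DM libraries all above CONT (Blnk), and the median log2 difference was 0.97.

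By definition the 7 genes with separate groups, Mzb1 and Eaf2 among them, were above every CONT library in DM replicates 1 and 2. The part of B cells in these values was not tested. In DM replicates 1 and 2 the summed B cell markers were within the CONT range. Without DM replicate 3 the log2 differences were 2.67 for Jchain, 2.73 for Igkc, 1.59 for Tnfrsf17 and 0.92 for Sdc1. With the mean log2 level of the B cell genes as a covariate they were 2.86, 2.92, 1.65 and 0.96. That level was 4.19 in DM replicate 3 and 0.694 to 1.66 in the other libraries. The covariate thus mostly marks DM replicate 3 and is not a separate check from leaving it out. None of the 4 passed in either fit (limma adjusted p = 0.0565 to 0.319). Irf4 was at 0.08 and Pou2af1 at -0.17 with that covariate.

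RNA of other blood cells moved with the groups too. For the counts below, 1.27% of all genes tested were called higher and 0.252% lower. An unadjusted p under 0.05 in limma was found for 9.77% higher and 6.24% lower. Summed over 15 macrophage and monocyte genes, FPKM ran from 38.8 to 119 in CONT and from 352 to 1247 in DM, and 3 of the 15 rose (Ccr2, Lyz2 and Mpeg1). For 9 basophil and mast cell genes the sums were 3.15 to 8.10 and 98.9 to 374 FPKM, and 5 of the 8 tested rose (Cpa3, Fcer1a, Mcpt2, Mcpt8 and Prss34); Fcer1a, Mcpt2 and Prss34 reached the level tested through DM alone, so they had to be higher there. The 12 neutrophil genes summed to 33.4 to 122 and 242 to 1394 FPKM with none called. Of 8 dendritic cell genes tested Cd209a was called, which likewise reached that level through DM alone (means of 0.233 and 3.88 FPKM); the 10 in the list summed to 23.1 to 42.7 and 57.5 to 168 FPKM. Erythroid genes, 10 in number, summed to 124 to 638 and 293 to 5415 FPKM, with overlapping groups and none called. CD4 T cell identity genes summed to 3099 to 4391 and 2537 to 3693 FPKM; none of 18 was called in limma, 6 had an unadjusted p under 0.05, all lower in DM (Cd4 and Cd3e among them), and the median log2 difference was -0.46. No gene of these lists was at 0 in all libraries. Genes listed at 0 were Fcer1a and Clec10a in CONT replicate 1, Mcpt2 in CONT replicates 1 and 2, Mcpt1 in those and DM replicate 1, and the B cell gene Fcer2a in CONT replicate 3. The part of these cells in the values of the plasma cell genes was not tested.

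**Figure D4:**
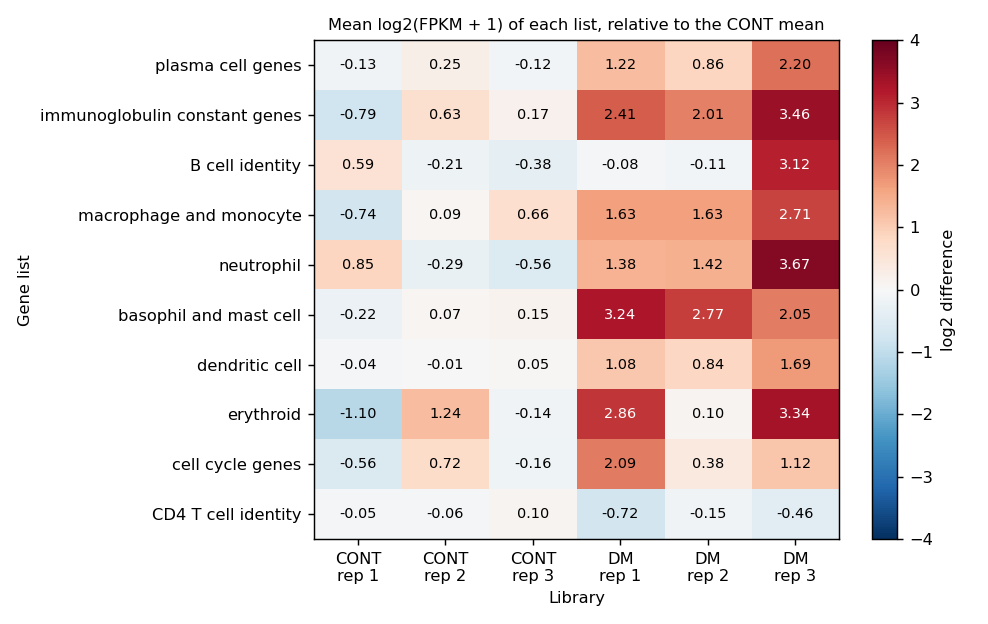
Mean log2(FPKM + 1) of each gene list in each library, less the mean of the 3 CONT libraries; red is higher and blue lower. The plasma cell genes stand at 1.22, 0.86 and 2.20 in DM, while B cell identity stands at -0.08, -0.11 and 3.12.

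The immunoglobulin constant genes include Igkc itself. Of 12 tested 2 rose, the heavy chain gene Ighg1 (IgG1) and the lambda light chain gene Iglc3, against 1.27% of all genes. An unadjusted p under 0.05 in limma was found for 10, all higher, against 9.77% of all genes higher. The median log2 difference was 2.83. Ighg1 had 0.759, 5.23 and 5.003 FPKM over CONT and 63.6, 36.6 and 59.8 FPKM over DM, a log2 difference of 3.71 ± 0.51 (SE; limma adjusted p = 0.0222). Iglc3 had 5.24, 21.03 and 10.6 and 79.4, 77.6 and 129 FPKM, a log2 difference of 3.003 ± 0.46 (SE; limma adjusted p = 0.0326); its reads may be shared with the near-identical Iglc2, at 7.604 to 44.5 and 121 to 214 FPKM. The remaining members with separate groups were Iglc1, Ighm, Ighg2c, Ighg3, Igha and Ighe. Ighe had 0, 0.0527 and 0 FPKM over CONT and 0.0832, 0.816 and 2.61 FPKM over DM. It reached the level tested through DM alone, so it had to be higher there. The IgM gene Ighm ran from 339 to 614 FPKM in CONT and from 1431 to 2481 FPKM in DM, and the IgA gene Igha from 15.3 to 122 and from 158 to 497 FPKM. In Ighg2b the groups overlapped, at 10.5 to 116 and 109 to 713 FPKM. Ighd (IgD), a gene of naive B cells, overlapped as well: it had 9.99, 1.98 and 1.63 FPKM over CONT and 2.70, 2.91 and 133 FPKM over DM, highest in the library rich in B cell markers. Igkc made up 13.8% to 19.0% of all immunoglobulin FPKM in CONT and 18.3% to 21.4% in DM.

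Further genes of the plasma cell programme gave no calls in limma. Of 20 genes 18 were tested. An unadjusted p under 0.05 in limma was found for 6 with higher values in DM and 2 with lower values. That was 44.4% of those tested, against 16.0% of all genes. The median log2 difference was 0.26, or -0.07 with total scaling and -0.01 with scaling to the sum without immunoglobulin genes. Xbp1, Derl3, Txndc5 and Cd28 are named after their values were seen. Xbp1, the factor that expands the secretory pathway, had 11.4, 15.8 and 15.3 FPKM over CONT and 27.9, 21.3 and 43.2 FPKM over DM, with no overlap and a log2 difference of 1.02 ± 0.29 (SE; limma adjusted p = 0.171). Derl3 and Txndc5, proteins of the endoplasmic reticulum, were also separate between the groups, at 0.388 to 0.531 against 1.20 to 4.30 FPKM and 8.81 to 12.6 against 18.4 to 40.04 FPKM; Derl3 reached the level tested through DM alone. Of the 18 genes 7 had log2 differences below 0. Trp53inp1, a stress response gene, and Cd28, the costimulatory receptor of T cells, were lower in every DM library than in any CONT library, at 76.03, 56.3 and 64.97 against 34.5, 32.9 and 44.6 FPKM and 82.7, 41.6 and 39.03 against 20.5, 34.3 and 25.2 FPKM, with log2 differences of -0.80 ± 0.23 and -0.95 ± 0.35 (SE; limma adjusted p = 0.178 and 0.270). The list also holds genes that monocytes and T cells use: Ly6c2, counted among the monocyte genes as well, averaged 18.6 ± 6.59 FPKM in CONT and 117 ± 68.4 FPKM in DM, and the integrin gene Itgb7 153 ± 26.2 and 115 ± 27.7 FPKM (SD, n = 3 each).

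Genes of protein entry into the endoplasmic reticulum and of antibody folding gave no call, and most of their log2 differences were above 0. Of 31 tested, 28 were above 0, where 48.8% of all genes were. With total scaling 19 were above 0, and with scaling to the sum without immunoglobulin genes 23. These scalings lower the median of all genes to -0.32 and -0.27. An unadjusted p under 0.05 in limma was found for 9, all higher, against 9.77% of all genes higher. In 15 every DM library was above every CONT library, as in 13.8% of all genes. The counts of 9 and 15 were not repeated with those scalings. The median log2 difference was 0.55. Hspa5 (BiP), the chaperone that holds free heavy chains, had 52.98, 118 and 126 FPKM over CONT and 156, 181 and 138 FPKM over DM. Hsp90b1 averaged 114 ± 32.5 and 164 ± 28.1 FPKM, the disulfide isomerase Pdia3 113 ± 25.4 and 155 ± 21.7 FPKM, and the lectin chaperone Calr 108 ± 9.93 and 133 ± 8.53 FPKM (SD, n = 3 each). CONT replicate 1, the library with the lowest Jchain, also had the lowest summed level of the list, 735 FPKM, with 1138 or more in the other 5. Its sum over all genes was the lowest too, at 248070 FPKM against 327172 to 410282. So were its sums of macrophage and monocyte (38.8 FPKM), erythroid (124 FPKM) and cell cycle genes (138 FPKM). The highest log2 difference of the list was that of the peroxiredoxin gene Prdx4, named after its values were seen, at 3.57, 8.34 and 8.24 FPKM over CONT and 26.5, 14.99 and 16.1 FPKM over DM (1.42 ± 0.35, SE; limma adjusted p = 0.121).

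**Figure D5:**
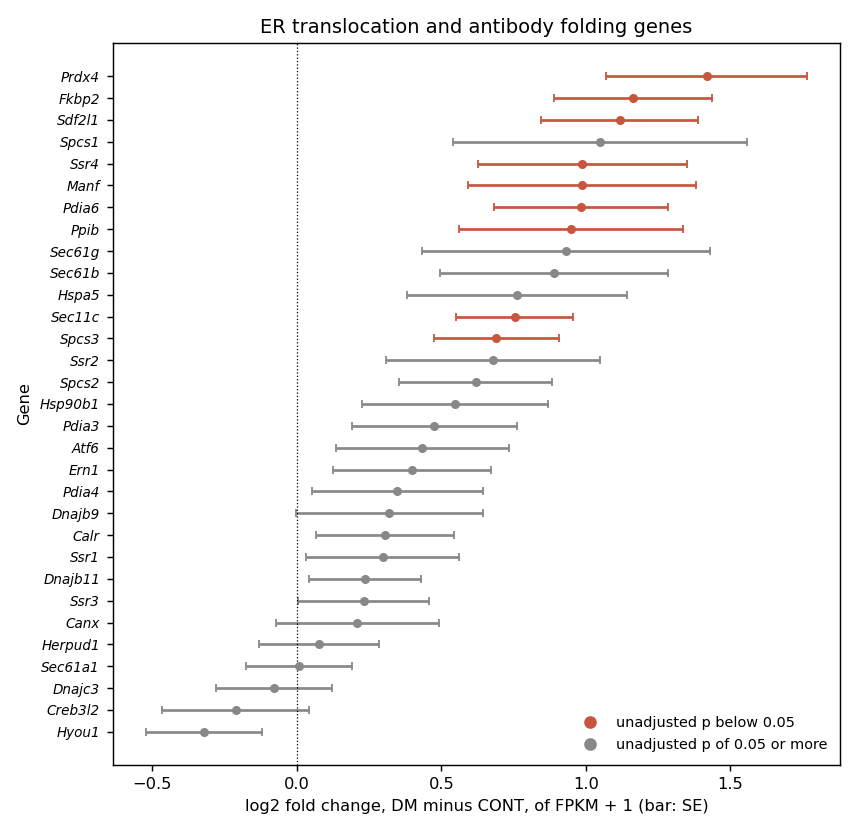
Log2 fold change of FPKM + 1, DM minus CONT, with its SE, of 31 genes of endoplasmic reticulum translocation and antibody folding; red marks an unadjusted p below 0.05. Of the 31 genes 28 lie above 0 (19 with total scaling), and none passed after adjustment over all genes.

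In the BAFF and APRIL system Tnfrsf17 was the single call among 8 genes tested, and the median log2 difference was -0.15. Tnfrsf13c, the BAFF receptor of B cells, had 0.866, 0.314 and 0.182 FPKM over CONT and 1.01, 0.682 and 9.44 FPKM over DM, highest where the B cell markers were. The ligand genes were below the level tested, Tnfsf13 (APRIL) at 0 to 0.380 (listed at 0 in CONT replicate 3) against 0.460 to 0.997 FPKM and Tnfsf13b (BAFF) at 0.0626 to 0.328 against 0.177 to 0.378 FPKM. Traf2, Traf3, Map3k14, Nfkb2 and Relb, which carry or restrain the signal to the alternative NF-kB pathway, had log2 differences of -0.15, -0.67, -0.59, -0.21 and -0.14, none past the test.

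The relatives of the 10 genes in the IRF, octamer factor, syndecan, and ELL and EAF families gave no call. Among 9 IRF genes, Irf8 and Irf5, factors of myeloid and B cells, had log2 differences of 1.71 and 1.62 (limma adjusted p = 0.0772 and 0.122), with every DM library above every CONT library, in libraries where the macrophage genes were also higher. Irf1, Irf2, Irf3, Irf7 and Irf9 had -0.11, -0.56, -0.21, -0.31 and -0.46. The octamer factor genes Pou2f1 and Pou2f2 had -0.65 and -0.06. Among syndecans, Sdc4 averaged 1.26 ± 0.126 and 4.45 ± 2.40 FPKM (SD, n = 3; limma adjusted p = 0.152) with separate groups, Sdc3 2.63 ± 1.11 and 2.70 ± 1.35 FPKM (SD, n = 3), and Sdc2 was below the level tested. Of 12 ELL and EAF elongation genes Eaf2 alone had an unadjusted p under 0.05 in limma, and their median log2 difference was -0.25.

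T cells are the labelled source, and T cell genes that act with IRF4 and BLIMP1 gave no call. Of 16 tested 4 had an unadjusted p under 0.05 in limma, 3 higher and 1 lower, against 16.0% of all genes. The median log2 difference was 0.16, or -0.14 with total scaling and -0.09 with scaling to the sum without immunoglobulin genes. Among the 4 most abundant, Ctla4, an inhibitory receptor of regulatory and activated T cells, had 27.7, 23.2 and 30.04 FPKM over CONT and 49.9, 53.7 and 51.97 FPKM over DM, with separate groups and a log2 difference of 0.92 ± 0.20 (SE; limma adjusted p = 0.0839). Tcf7, a factor of naive T cells, was lower in every DM library and averaged 382 ± 154 and 185 ± 49.05 FPKM. In the costimulatory receptor gene Icos (35.4 ± 3.15 and 38.9 ± 2.56 FPKM) and the gene of the AP-1 factor Batf, which pairs with IRF4 (19.7 ± 9.07 and 30.9 ± 5.87 FPKM; SD, n = 3 each), the groups overlapped. The other two with higher values and an unadjusted p under 0.05 in limma, Havcr2 and Il10, named after their values were seen, reached the level tested through DM alone. Of 15 cell cycle genes, which dividing plasmablasts and dividing T cells share, 9 had an unadjusted p under 0.05 in limma. All 9 were higher in DM, against 9.77% of all genes higher. None was called, and the groups overlapped in each of the 15. Mki67, a marker of dividing cells, had 22.6, 35.8 and 15.7 FPKM over CONT and 123, 32.8 and 60.5 FPKM over DM. Which cells gave the cell cycle RNA was not tested.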

How the data were processed

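Per the labels' protocols, Trizol was used for RNA and Illumina protocols for libraries. The submitters' processing notes name GRCm38, cutadapt 1.9 and FastQC; no source used here states the aligner or quantifier. The authors deposited 1 table of FPKM per gene and library. Its name calls the values counts, but they are not whole, library sums differ (248070 to 410282), and 16.6% to 18.8% of low values of 15403 single-transcript genes, times length, lay within 0.02 of a whole step, where the typical step size gave 3.54% to 3.59%. The authors' deposited p-value, q-value, fold change (ratio of means) and log2 columns come from an unstated test and are not mixed with values computed here.

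The fit used limma 3.58.1 (R 4.3.3) on log2(FPKM + 1), with a trended, robust prior, no covariate, two-sided tests and Benjamini-Hochberg adjustment over every gene tested; it was tested on simulated data. The 10 genes and the 17 other lists were chosen with earlier results of these data known. By rule the text may name all 10 genes, called list genes, up to 4 per list by level, the whole IRF, syndecan, POU2F, BAFF and APRIL and immunoglobulin constant lists, and markers such as Cd4, Cd3e, Foxp3, Ms4a1 and Pax5, except that some genes are not reported here; others are marked, or are the single gene behind a count. Pou2f3, Pou2af2, Pou2af3 and Ahsp matched no row by name. Gene coordinates (1-based) come from GENCODE M21 on GRCm38, which held 28864 of the 28945 identifiers; start-site windows come from RefSeq. The 17 alternatives fixed in advance were 4 scalings, pseudocounts of 0.1 and 0.5, 2 filters, a constant prior, a replicate block, a B cell covariate and each library left out in turn. Leaving out CONT replicate 1 with DM replicate 3 was added after the data were seen. Plots were made in matplotlib 3.10.9 (Python 3.11.15).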

Additional observations from a re-analysis of the deposited data

How the results depend on the processing

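Over all genes 199 were called. With no filter on low values there were 28 and with the B cell marker level as a covariate 101; with 1 library left out there were 24 (without DM replicate 1) to 192, and without CONT replicate 1 and DM replicate 3 together 179. For genes of the other lists, 11 of which were called, these counts were 2, 7, 2 to 13 and 15. The number of plasma cell genes called, 1, became 0 with total scaling, with scaling to the sum without immunoglobulin genes, with no filter and with the covariate, and was 0 or 1 with 1 library left out. A fit with fewer libraries, or over more genes, has less power by construction; beyond that the cause was not tested. Pou2af1 reversed with the covariate (-0.17) and, with 1 library left out, ran from -0.23 (without DM replicate 3) to 1.04. Prdm1 ran from -0.33 to 0.25 with 1 library left out, reversing without CONT replicate 1 (0.25), DM replicate 1 (0.00064) or DM replicate 2 (0.046), and without CONT replicate 1 and DM replicate 3 together (0.015). The cause was not tested. The other 8 genes were above 0 in every alternative that gave them a value; Eaf2 was below the level tested without DM replicate 3.

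CONT and DM share replicate numbers, but same-numbered libraries did not deviate together from their group means (correlations of -0.36, -0.38 and -0.20). With a replicate block 204 genes, 16 list genes and 1 plasma cell gene were called. Depth is unknown, so no counting interval could be given, which matters most for genes under 1 FPKM in CONT: Eaf2, Sdc1 and Tnfrsf17.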
